A study of Mus musculus with 12 samples.

Results

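The genes described here are hepatic complement and coagulation factors, the plasma proteins that hepatocytes secrete to mark microbes for attack and to form, restrain and dissolve clots. The list named 37 genes by function, and the brightest probe set over the 12 arrays, by its mean, stood for each gene. Of the 37 genes, 34 had a probe set of their own, all 34 passed the filter on low values, and 3 (C3, C4b and Cpb2) had none of their own and are not analysed here. They stand among 12393 genes with a probe set of their own, 8469 of which were tested.

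Liver RNA of 12 male C57BL6/J mice, 8 weeks old, was hybridised to Affymetrix arrays, 1 liver per array, with 3 biological replicates in each of 4 groups. The groups were liver-null mice given 100 mg/kg acetaminophen (APAP), liver-null mice given saline, wild-type mice given APAP, and wild-type mice given saline, all by intraperitoneal injection 8 hours before the liver was taken. In liver-null mice, albCre, a Cre recombinase under the albumin promoter and so made in hepatocytes, disrupts a conditional-null allele of Txnrd1, the gene of cytosolic thioredoxin reductase. Whether wild-type mice carried the conditional allele or Cre is not given in the sources used here, and the other cells of a liver keep the allele. Mice are named by the number that ends their label.

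Txnrd1 read higher in the livers labelled liver-null, at 10.40 ± 0.11, against 9.64 ± 0.14 in wild-type livers (log2, SD, n = 6 each, limma log2 difference 0.75, SE 0.09, adjusted p = 0.000858). The probe set therefore does not check the genotype labels, and whether it lies in the deleted part is not known here. The term liver-null is used only as that label. Hepatocyte markers, of which 14 of 16 were tested, averaged 12.29 to 12.38 on liver-null arrays and 12.29 to 12.40 on wild-type arrays. On 4 arrays, 1 per group (liver-null APAP 17, liver-null saline 16, wild-type APAP 14 and wild-type saline 10), the upper quartile of all values was 5.49 to 5.58, against 5.73 to 5.85 on the other 8. The labels name no reason, so genotype differences are also given within each set.

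Complement is a cascade of plasma proteases and binding proteins. Lectins such as mannose-binding lectin recognise sugars on microbes and activate MASP proteases, which cleave C4 and C2. Cleavage of C3 and C5 follows, and C5b, C6, C7, C8 and C9 then assemble into a pore in the target membrane. Coagulation starts from tissue factor with factor VII, or from the contact factors XII, XI and plasma kallikrein. It converges on factor X and prothrombin, and thrombin turns fibrinogen into fibrin. Antithrombin, heparin cofactor II and protein C limit thrombin, while plasmin dissolves fibrin. Most of these proteins come from hepatocytes, and fibrinogen is also a well-known acute phase protein, made in greater amounts during inflammation.

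Promoter windows of the members that differed between genotypes are printed to show the DNA that carries them, together with that of Fgb, a member that passed the test in none of the comparisons. Each is the 250 bases before the RefSeq gene start on assembly GRCm38.p6, written 5′ to 3′ on the gene's strand. Capitals mark matches to 6 motifs searched on both strands: GTTAAT (HNF1), TTGCNNAA (C/EBP), AAAGTCC (HNF4), TTCNNNGAA (STAT), TGTTTAC (FOXA) and TGANNNNGC (antioxidant response element, ARE). HNF1, HNF4, FOXA and C/EBP are families of liver transcription factors, STAT factors act in the acute phase response, and the ARE is bound by Nrf2. The letters searched for the ARE allow any base at each N, so an ARE match here means only this loose pattern.
C6, chr15:4726960-4727209, plus strand: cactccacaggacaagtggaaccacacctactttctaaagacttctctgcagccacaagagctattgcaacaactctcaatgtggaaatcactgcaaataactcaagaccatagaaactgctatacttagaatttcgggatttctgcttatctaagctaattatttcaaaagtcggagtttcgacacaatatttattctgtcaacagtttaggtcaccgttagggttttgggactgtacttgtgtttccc
C8a, chr4:104876399-104876648, minus strand: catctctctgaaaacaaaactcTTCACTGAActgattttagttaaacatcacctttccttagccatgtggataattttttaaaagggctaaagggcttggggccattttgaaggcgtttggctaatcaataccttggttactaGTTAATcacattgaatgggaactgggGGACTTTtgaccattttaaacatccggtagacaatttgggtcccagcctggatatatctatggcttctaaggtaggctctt
C8b, chr4:104766067-104766316, plus strand: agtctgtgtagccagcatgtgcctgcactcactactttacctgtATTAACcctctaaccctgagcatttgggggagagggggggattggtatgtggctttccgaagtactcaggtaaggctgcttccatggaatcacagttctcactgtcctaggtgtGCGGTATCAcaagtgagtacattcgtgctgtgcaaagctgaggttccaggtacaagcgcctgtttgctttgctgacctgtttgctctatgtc
C9, chr15:6445096-6445345, plus strand: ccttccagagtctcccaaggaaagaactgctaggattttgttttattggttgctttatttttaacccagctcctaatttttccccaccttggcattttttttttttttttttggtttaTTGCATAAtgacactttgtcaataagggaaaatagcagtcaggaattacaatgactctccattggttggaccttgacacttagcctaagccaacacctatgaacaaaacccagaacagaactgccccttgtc
Mbl2, chr19:30232678-30232927, plus strand: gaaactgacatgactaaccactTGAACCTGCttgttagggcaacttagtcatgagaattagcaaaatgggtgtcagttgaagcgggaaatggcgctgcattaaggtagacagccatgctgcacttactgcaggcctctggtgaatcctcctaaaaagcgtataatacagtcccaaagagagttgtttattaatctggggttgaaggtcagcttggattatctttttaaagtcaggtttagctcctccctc
Serpind1, chr16:17331121-17331370, plus strand: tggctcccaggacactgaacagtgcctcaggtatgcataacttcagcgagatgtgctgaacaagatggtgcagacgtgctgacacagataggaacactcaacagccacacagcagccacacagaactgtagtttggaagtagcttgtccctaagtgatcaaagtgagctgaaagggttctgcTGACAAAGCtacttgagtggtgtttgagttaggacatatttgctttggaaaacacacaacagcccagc
Fgb, chr3:83049864-83050113, minus strand: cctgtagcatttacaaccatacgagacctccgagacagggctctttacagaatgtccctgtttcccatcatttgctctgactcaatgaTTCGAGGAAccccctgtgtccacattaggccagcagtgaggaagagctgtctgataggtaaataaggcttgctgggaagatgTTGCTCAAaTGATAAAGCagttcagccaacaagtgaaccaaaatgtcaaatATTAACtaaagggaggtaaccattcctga

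The windows were unlike one another in these letters. The C6 window held 0 matches. The C8a window held 3 matches, to STAT, HNF1 and HNF4 in that order, and the neighbouring C8b held 2, to HNF1 and ARE. The C9 window had 1 C/EBP match, and those of Mbl2 and Serpind1 had 1 ARE match each. The Fgb window held 4 matches, to STAT, C/EBP, ARE and HNF1, and its C/EBP and ARE letters are separated by a single base. A window was available for 27 of the 34 members. HNF1 letters were in 7 of the 27 (25.9%), against 6.43% of all 32851 windows of that length, C/EBP letters in 7 (25.9%, against 9.56%) and STAT letters in 6 (22.2%, against 7.02%). ARE letters were in 11 of 27 (40.7%), against 35.2% of all windows, HNF4 letters in 1 (3.7%, against 3.58%) and FOXA letters in 2 (7.41%, against 3.17%). A match is a stretch of letters and not a measured binding site. In the printed ARE matches, the base after TGA was C in Serpind1, A in Mbl2, and T in C8b and Fgb. Whether Nrf2 binds any of these matches was not tested.

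Across both injections, 6 of the 34 members were lower in liver-null livers and 0 were higher. A gene was called where limma's Benjamini-Hochberg adjusted p over the 8469 genes was under 0.05. Of all genes tested, 2.18% were called lower and 4.46% in either direction. The 6 members were C6, C8a, C8b and C9, which build the membrane attack complex, Mbl2, which encodes mannose-binding lectin C, and Serpind1, which encodes heparin cofactor II. The difference was negative for 30 of 34 members, against 53.2% of all genes. Its median was -0.16 on the log2 scale, against -0.01 over all genes. Hepatocyte markers were also mostly negative, 12 of 14, with a smaller median of -0.05, so the shared sign is not particular to the members. At an unadjusted p under 0.05, 17 members were lower and 0 higher, against 9.26% of all genes lower. In bulk liver RNA, fewer cells of a type and less RNA per cell cannot be told apart.

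**Figure D1:**
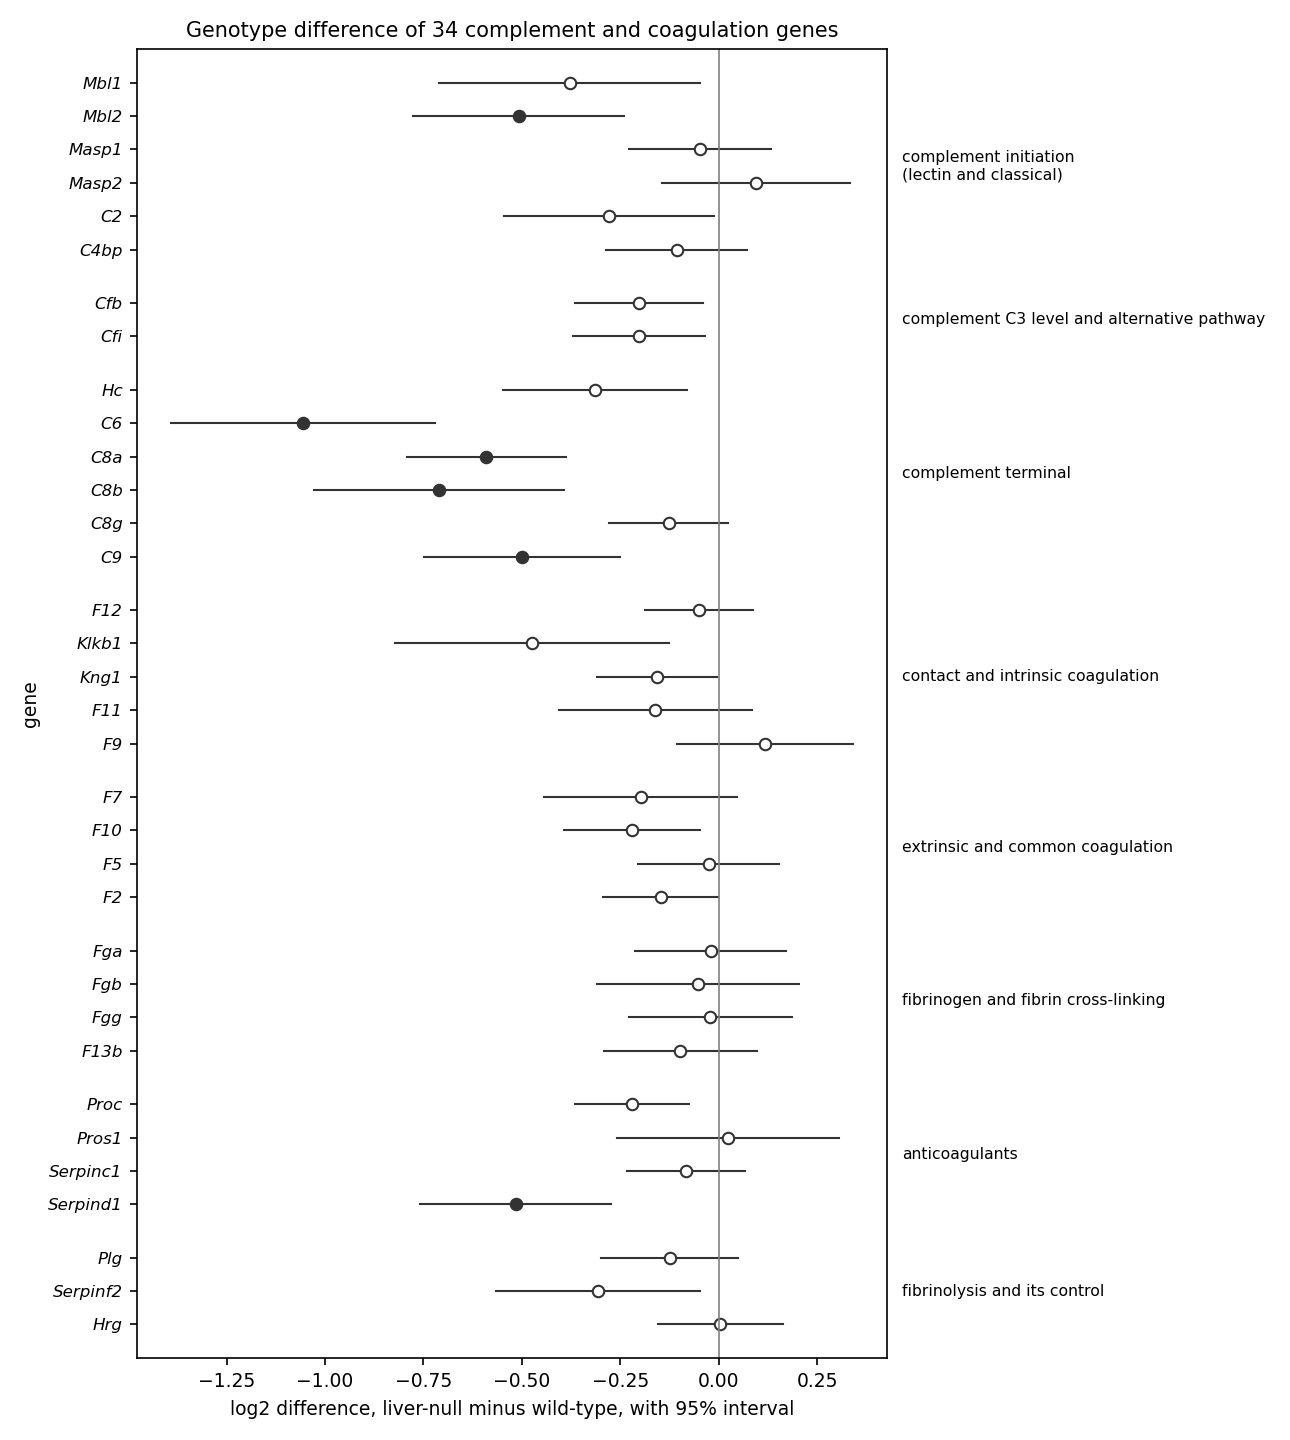
Log2 difference of each of the 34 members, liver-null minus wild-type over both injections, with its 95% interval (limma, 6 arrays of each genotype), grouped by role, where filled points are members called and open points are not. The filled points are C6, C8a, C8b, C9, Mbl2 and Serpind1, all left of 0, and the fibrinogen genes lie close to 0.

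Terminal complement held 4 of the 6 calls among its 6 members, and its median log2 difference was -0.55. C6, which binds C5b to start the pore, read 9.02, 8.49 and 9.06 in liver-null APAP livers and 8.42, 8.80 and 8.46 in liver-null saline livers. It read 9.96, 9.93 and 9.44 in wild-type APAP livers and 10.002, 9.87 and 9.39 in wild-type saline livers. The lowest wild-type array lay above the highest liver-null array. C6 was 2.08-fold lower in liver-null livers, at 8.71 ± 0.29, against 9.76 ± 0.27 in wild-type livers (SD, n = 6 each), a log2 difference of -1.06 (SE 0.15, limma adjusted p = 0.00328).

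C8a, the chain of C8 that inserts into the membrane, read 11.26, 11.09 and 11.32 in liver-null APAP livers and 11.07, 11.13 and 11.21 in liver-null saline livers. In wild-type livers it read 12.03, 11.72 and 11.65 after APAP and 11.85, 11.79 and 11.57 after saline. Again the genotypes did not overlap, and the spread within each group was smaller than for C6. C8a was 1.51-fold lower in liver-null livers, with a log2 difference of -0.59 (SE 0.09, limma adjusted p = 0.00517).

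C8b, the chain that joins C8 to the C5b-7 complex, is the neighbour of C8a among protein-coding genes on chromosome 4. It read 10.26, 9.94 and 10.17 in liver-null APAP livers and 9.65, 10.25 and 10.08 in liver-null saline livers. The wild-type APAP livers read 11.09, 10.70 and 10.52 and the wild-type saline livers 11.02, 10.83 and 10.44. All 6 liver-null arrays were below all 6 wild-type arrays, and C8b was 1.64-fold lower (log2 difference -0.71, SE 0.14, limma adjusted p = 0.0183).

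C9, whose copies form the ring of the pore, read 11.46, 11.28 and 11.28 in liver-null APAP livers and 11.10, 11.32 and 11.08 in liver-null saline livers. It read 12.02, 11.69 and 11.51 in wild-type APAP livers and 11.94, 11.87 and 11.48 in wild-type saline livers. The genotypes were separated by the narrow step between liver-null APAP 2 and wild-type saline 10. The log2 difference was -0.50 (SE 0.11, limma adjusted p = 0.0299).

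The remaining terminal members were not called. Hc, which encodes C5, read 10.97 to 11.21 in liver-null livers and 11.17 to 11.73 in wild-type livers, with an overlap and a log2 difference of -0.31 (limma adjusted p = 0.138). C8g, the lipocalin chain of C8, read 11.61 to 11.75 in liver-null livers and 11.75 to 11.98 in wild-type livers. Its log2 difference was -0.13, with a 95% interval of -0.28 to 0.02 (limma adjusted p = 0.399), so that 2 chains of C8 passed the test and the third did not. Whether C8g differed from C8a and C8b was not tested.

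**Figure D2:**
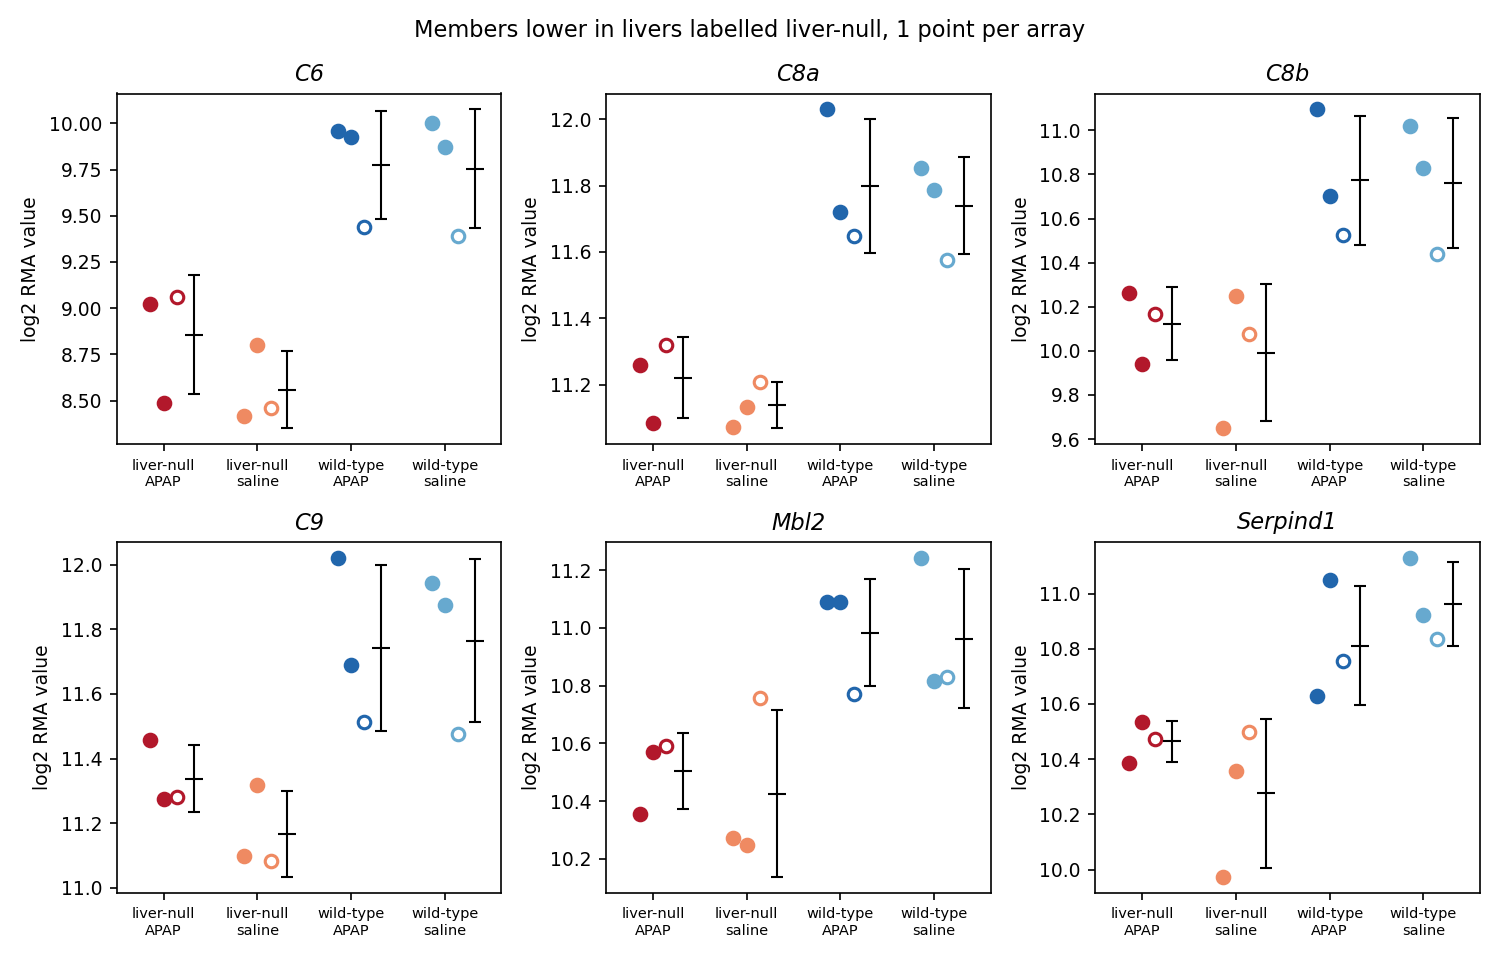
Log2 RMA values of the 6 called members in each of the 12 livers, by group, with a bar for the group mean and SD (n = 3) and open points for the 4 arrays with a lower upper quartile. In each panel every liver-null point lies below every wild-type point, and the open wild-type points are in most panels the lowest of their groups.

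Among the members that start complement, Mbl2 alone was called of 6 tested, and the median log2 difference was -0.19. Mbl2 read 10.35, 10.57 and 10.59 in liver-null APAP livers and 10.27, 10.25 and 10.76 in liver-null saline livers. Wild-type APAP livers read 11.09, 11.09 and 10.77, and wild-type saline livers 11.24, 10.82 and 10.83. The genotypes met closely at liver-null saline 16 and wild-type APAP 14 without overlapping. Mbl2 was 1.42-fold lower in liver-null livers (log2 difference -0.51, SE 0.12, limma adjusted p = 0.0395).

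Mbl1, which encodes mannose-binding lectin A, read 9.74, 9.56 and 9.56 in liver-null APAP livers and 9.99, 9.68 and 9.53 in liver-null saline livers. It read 10.63, 9.83 and 9.94 in wild-type APAP livers and 9.98, 10.25 and 9.71 in wild-type saline livers. The genotypes overlapped, wild-type APAP 12 stood far above its group, and the log2 difference of -0.38 was not called (limma adjusted p = 0.219). C2, the protease that joins C4b in the C3 convertase, had a log2 difference of -0.28, and C4bp, a brake on that convertase, one of -0.11 (limma adjusted p = 0.271 and 0.594).

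The probe sets used for the MASP proteases showed little difference. Masp1 read 9.12, 9.30 and 9.15 in liver-null APAP livers, 9.29, 9.22 and 9.29 in liver-null saline livers, 9.37, 9.34 and 9.07 in wild-type APAP livers, and 9.16, 9.37 and 9.34 in wild-type saline livers. The groups overlapped throughout (log2 difference -0.05, limma adjusted p = 0.856). However, the other 4 Masp1 probe sets, which were dimmer, gave -0.28, -0.29, -0.29 and -0.20. The first and last of these had an unadjusted p under 0.05 in a limma fit over all probe sets. Neither passed the adjusted threshold there, and the last lay below the filter. For Masp2, whose protease cleaves C4, the probe set used gave 0.09 and a second one -0.11, so that their signs disagree.

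In the alternative pathway, both members had lower means in liver-null livers and neither was called. Cfb, factor B, which forms the alternative C3 convertase, read 10.98, 10.96 and 10.91 in liver-null APAP livers and 11.06, 10.89 and 10.88 in liver-null saline livers. It read 11.33, 11.15 and 11.11 in wild-type APAP livers and 11.17, 11.13 and 11.02 in wild-type saline livers, so that wild-type saline 10 fell below liver-null saline 4. The log2 difference was -0.20 (SE 0.07, limma adjusted p = 0.172).

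Cfi, factor I, the protease that inactivates C3b and C4b, read 11.75, 11.70 and 11.67 in liver-null APAP livers and 11.64, 11.68 and 11.55 in liver-null saline livers. It read 11.95, 11.91 and 11.77 in wild-type APAP livers and 11.95, 11.94 and 11.69 in wild-type saline livers. Only wild-type saline 10 reached into the liver-null range (log2 difference -0.20, limma adjusted p = 0.193). Over all 14 complement members tested, 5 were called lower, 13 differences were negative and the median was -0.30. Over the 20 coagulation and fibrinolysis members, 1 was called lower, 17 differences were negative and the median was -0.11. Of all genes, 2.18% were called lower and 53.2% of differences were negative, with a median of -0.01. The difference between these subsets was not tested.

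Among the contact and intrinsic factors, 0 of 5 were called by limma, with 2 lower at an unadjusted p under 0.05, Klkb1 and Kng1. Klkb1, which encodes plasma prekallikrein, read 9.91, 10.02 and 9.99 in liver-null APAP livers and 9.05, 9.94 and 9.95 in liver-null saline livers. Wild-type livers read 9.83, 10.39 and 10.30 after APAP and 10.44, 10.47 and 10.27 after saline. Klkb1 had the largest spread within groups of the 34 members, with liver-null saline 4 and wild-type APAP 12 far below their groups. Its log2 difference was -0.47 (SE 0.16, limma adjusted p = 0.133).

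F11, factor XI, which neighbours Klkb1 on chromosome 8, was lowest of its group on the same pair of arrays, at 8.07 in liver-null saline 4 and 7.99 in wild-type APAP 12. Its log2 difference was -0.16 (limma adjusted p = 0.550). Kng1, the kininogen from which kallikrein releases bradykinin, read 12.11 to 12.32 in liver-null livers and 12.35 to 12.51 in wild-type livers. These ranges did not overlap, and the log2 difference was -0.16 (limma adjusted p = 0.277). F9, factor IX, had a positive difference, 0.12 (limma adjusted p = 0.656), and F12, factor XII, one of -0.05 (limma adjusted p = 0.780).

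The extrinsic and common factors held 0 calls among 4 members, with 2 (F10 and F2) lower at an unadjusted p under 0.05. F10, factor X, which with factor V activates prothrombin, read 10.78, 10.77 and 10.61 in liver-null APAP livers and 10.76, 10.72 and 10.67 in liver-null saline livers. It read 11.04, 10.90 and 10.81 in wild-type APAP livers and 11.08, 10.99 and 10.82 in wild-type saline livers. The genotypes did not overlap, and the log2 difference was -0.22 (SE 0.08, limma adjusted p = 0.160). The other F10 probe sets, which were dimmer but passed the filter, gave -0.60 and -0.53. Both had an unadjusted p under 0.05 in a limma fit over all probe sets, and neither passed the adjusted threshold there.

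F7, factor VII, the partner of tissue factor and neighbour of F10 on chromosome 8, read 8.76, 8.81 and 8.54 in liver-null APAP livers and 8.91, 8.63 and 8.64 in liver-null saline livers. It read 8.91, 9.03 and 8.69 in wild-type APAP livers and 9.17, 9.03 and 8.65 in wild-type saline livers. The genotypes overlapped (log2 difference -0.20, limma adjusted p = 0.422). F2, prothrombin, had a log2 difference of -0.15 and F5, factor V, one of -0.03 (limma adjusted p = 0.285 and 0.933).

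The fibrinogen genes Fga, Fgb and Fgg, which lie next to one another on chromosome 3, were close between genotypes. Their log2 differences were -0.02 (95% interval -0.21 to 0.17), -0.05 (-0.31 to 0.20) and -0.02 (-0.23 to 0.19). Fgb, the beta chain, read 13.19, 13.16 and 13.22 in liver-null APAP livers and 13.56, 13.14 and 13.19 in liver-null saline livers. It read 13.70, 13.09 and 13.31 in wild-type APAP livers and 13.30, 13.32 and 13.04 in wild-type saline livers. The highest arrays were wild-type APAP 12 and liver-null saline 4, 1 of each genotype.

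F13b, the carrier subunit of the fibrin cross-linking factor XIII, read 10.15, 10.31 and 10.26 in liver-null APAP livers and 9.96, 10.19 and 10.37 in liver-null saline livers. It read 10.30, 10.41 and 10.27 in wild-type APAP livers and 10.13, 10.36 and 10.35 in wild-type saline livers, an overlap with a log2 difference of -0.10 (limma adjusted p = 0.673). None of these 4 members had an unadjusted p under 0.05 in the limma fit.

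Of the 4 anticoagulants, Serpind1 was called. It encodes heparin cofactor II, a thrombin inhibitor, and read 10.39, 10.54 and 10.47 in liver-null APAP livers and 9.97, 10.36 and 10.50 in liver-null saline livers. Wild-type livers read 10.63, 11.05 and 10.75 after APAP and 11.13, 10.92 and 10.83 after saline. The genotypes did not overlap, and liver-null saline 4 was the lowest array. Serpind1 was 1.43-fold lower in liver-null livers (log2 difference -0.52, SE 0.11, limma adjusted p = 0.0239).

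Proc, protein C, which with protein S cuts factors Va and VIIIa, read 11.10 to 11.23 in liver-null livers and 11.24 to 11.42 in wild-type livers. Its ranges touched without overlapping, and the log2 difference was -0.22 (SE 0.07, limma adjusted p = 0.0935). Pros1, protein S, read 7.55, 7.85 and 7.44 in liver-null APAP livers, 7.64, 7.76 and 7.64 in liver-null saline livers, 8.15, 7.66 and 7.49 in wild-type APAP livers, and 7.47, 7.71 and 7.24 in wild-type saline livers. All 4 groups overlapped (log2 difference 0.02, limma adjusted p = 0.966). Serpinc1, antithrombin, had a log2 difference of -0.08, with a 95% interval of -0.23 to 0.07.

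In fibrinolysis, 0 of 3 members were called by limma and 1, Serpinf2, was lower at an unadjusted p under 0.05. Serpinf2 encodes alpha-2-antiplasmin, the main plasmin inhibitor, and read 10.75, 10.71 and 10.77 in liver-null APAP livers and 11.17, 10.62 and 10.72 in liver-null saline livers. It read 11.32, 10.98 and 10.90 in wild-type APAP livers and 11.30, 11.17 and 10.91 in wild-type saline livers. Liver-null saline 4 alone reached into the wild-type range (log2 difference -0.31, limma adjusted p = 0.201). Plg, plasminogen, had a log2 difference of -0.12 and Hrg, histidine-rich glycoprotein, one of 0.00 (95% interval -0.15 to 0.16).

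Over both injections, all 6 liver-null arrays lay below all 6 wild-type arrays for 9 members, against 2.09% of all genes. These were the 6 called members with Kng1, F10 and Proc. Within the 8 arrays with the higher upper quartile, 32 of 34 differences were negative with a median of -0.20 (all genes -0.02). Within the other 4 arrays, 24 of 34 were negative with a median of -0.08 (all genes 0.01), over 1 liver per group. C6 differed by -1.26 in the 8 arrays and by -0.65 in the 4, C8a by -0.71 and -0.35, C8b by -0.89 and -0.36, C9 by -0.59 and -0.31, Serpind1 by -0.62 and -0.31, and Mbl2 by -0.70 and -0.12. Each kept its direction in both sets, with the smaller size in the 4 arrays.

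Leaving out livers 1 at a time changed how many members were called. C6 and C8a were called without any 1 array. Without wild-type saline 8 or wild-type saline 9, they were the only members called, and the count over all genes fell to 208 and 224, against 378 with all arrays. Without liver-null APAP 2, liver-null APAP 3 or wild-type APAP 13, 3 members were called, with 215, 233 and 250 of all genes. Without any other array, 4 to 6 members were called, with 239 to 416 of all genes. The array weights that limma estimates raised the count to 16, with 1409 genes called in all.

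Split by injection, the calls were fewer. In saline livers 1 of 34 members was called lower, C6, against 0.272% of all genes, with 10 members lower and 0 higher at an unadjusted p under 0.05. Of all genes, 7.20% were lower and 5.01% higher at that level. The saline log2 difference of C6 was -1.19 (SE 0.22, limma adjusted p = 0.0332), and the call was lost without any 1 of wild-type saline 8 and 9 or liver-null saline 4, 5 and 16. The next were C8a at -0.60 and Serpind1 at -0.69 (limma adjusted p = 0.0617 and 0.0758). The 3 liver-null arrays lay below the 3 wild-type arrays for 17 members, against 8.7% of all genes, and all 6 terminal members were among them. The median over members was -0.17, against -0.03 over all genes.

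In APAP livers limma called 0 of 34 members, against 0.768% of all genes in either direction, while 8 members were lower and 0 higher at an unadjusted p under 0.05. Of all genes, 3.98% were lower and 5.04% higher at that level. C8a differed by -0.58 and C6 by -0.92 (limma adjusted p = 0.0786 and 0.0924). For 16 members the 3 liver-null arrays lay below the 3 wild-type arrays, against 6.91% of all genes, 5 of them terminal members. The median over members was -0.17, against -0.003 over all genes.

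APAP moved no member past the test. In liver-null livers APAP minus saline was called for 0 of 34 members (0% of all genes), and in wild-type livers likewise for 0 of 34 (0% of all genes). Averaged over genotypes, and for the interaction between APAP and genotype, limma again called 0 of 34 (0% of all genes each time). At an unadjusted p under 0.05 there were 0 members in each of these comparisons, against 0.697% of all genes in liver-null livers, 1.69% in wild-type livers, 1.20% averaged and 1.29% for the interaction. The median over members was 0.04 in liver-null livers, 0.01 in wild-type livers and 0.02 averaged. These comparisons share arrays with one another and with the genotype comparisons.

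The member with the largest APAP difference in liver-null livers was Klkb1, at 0.33 (SE 0.22), against -0.22 (SE 0.22) in wild-type livers. Its interaction, 0.54 (SE 0.32), was not called (limma adjusted p = 0.999), and liver-null saline 4 and wild-type APAP 12 are the low arrays behind both values. For Pros1, APAP minus saline was -0.07 in liver-null livers and 0.30 in wild-type livers, where wild-type APAP 12 was the high array. C6 differed by 0.30 in liver-null livers and 0.02 in wild-type livers, and averaged 0.16 (SE 0.15), the largest averaged APAP difference of a member. The terminal members had averaged APAP differences of -0.06 to 0.16.

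F12 had the smallest spread within groups of all members. It read 10.22, 10.18 and 10.16 in liver-null APAP livers, against 10.15, 10.09 and 10.14 in liver-null saline livers. It read 10.15, 10.10 and 10.14 in wild-type APAP livers, against 10.29, 10.28 and 10.26 in wild-type saline livers. The APAP livers were thus above saline in liver-null mice and below it in wild-type mice, without overlap. The interaction of 0.21 (SE 0.12) was nonetheless not called (limma adjusted p = 0.999). Its SE is moderated over all genes, while the SD of F12 within groups was 0.03.

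**Figure D3:**
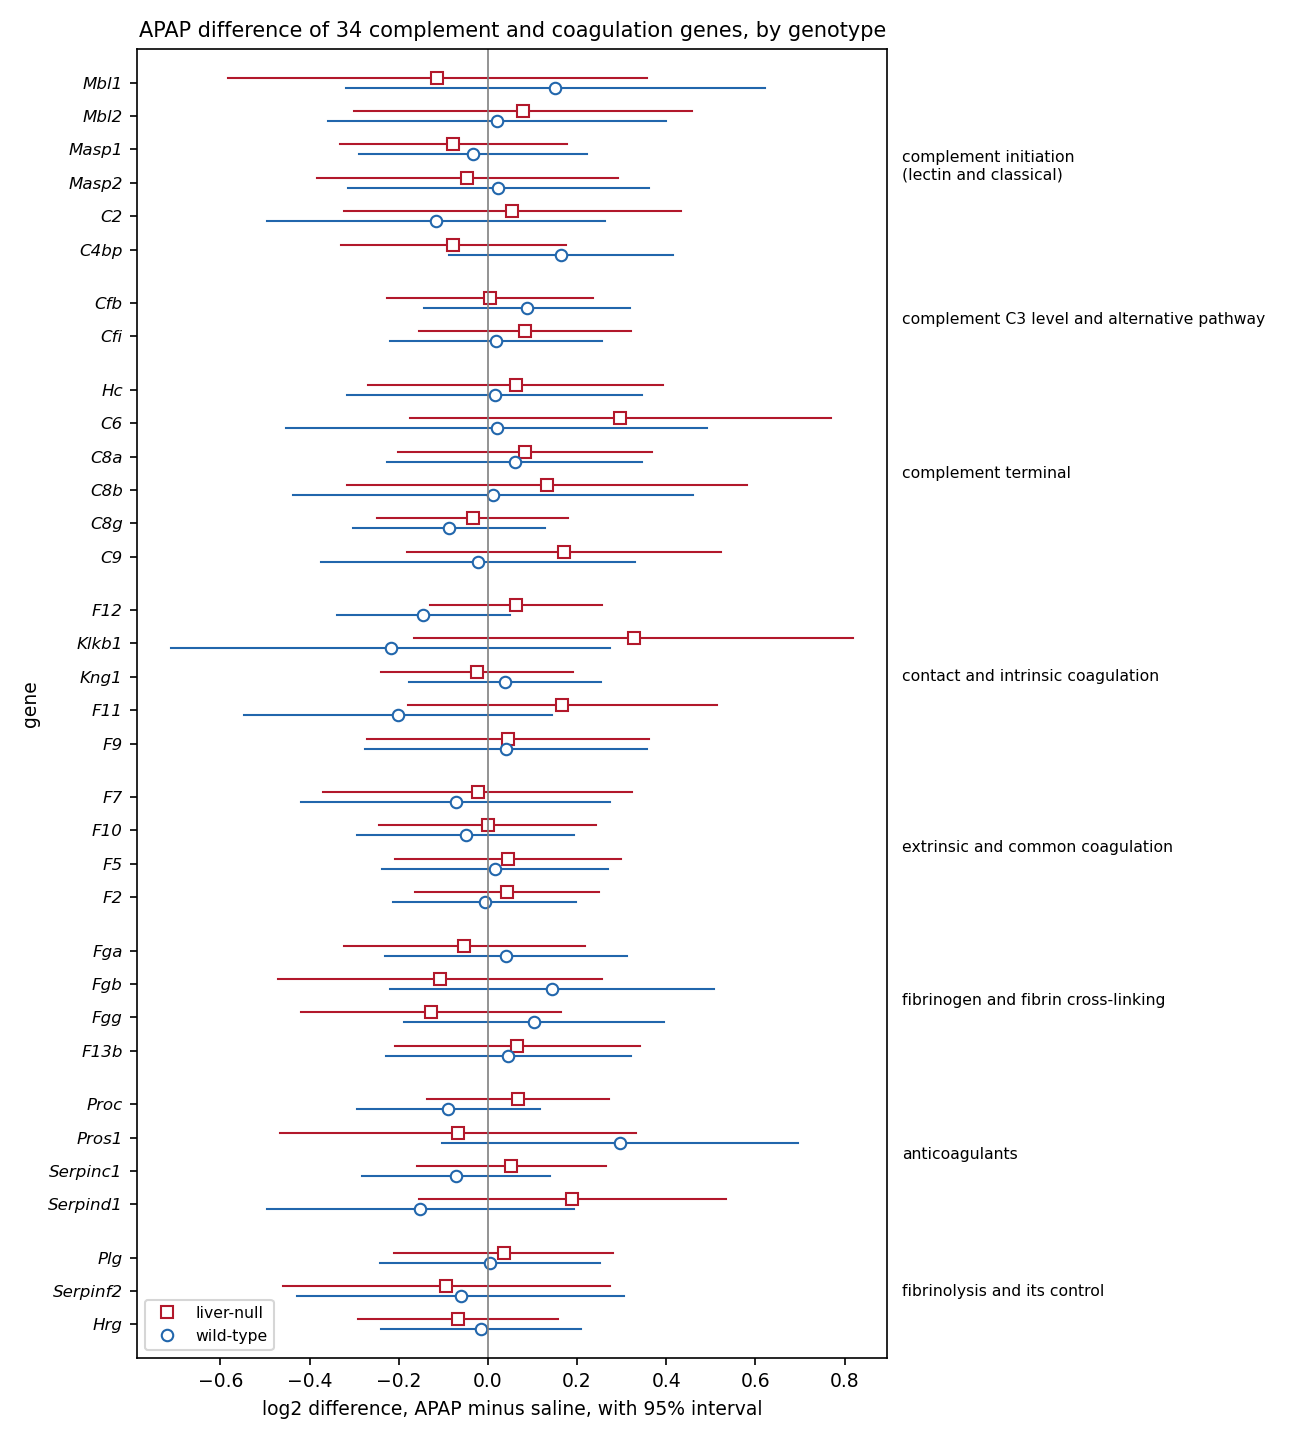
Log2 difference of the 34 members, APAP minus saline, with 95% intervals (limma, 3 arrays against 3), for liver-null livers (squares) and wild-type livers (circles), grouped by role. All points are open, since 0 members were called, and Klkb1, C6 and Pros1 lie farthest from 0.

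Single livers differed from their groups in several members at once. In liver-null saline 4, Fgb was 0.26, Fgg 0.19, Fga 0.15 and Serpinf2 0.33 above the group mean, while Klkb1 was at -0.59, C8b at -0.34, Serpind1 at -0.30 and F11 at -0.14. In wild-type APAP 12, Mbl1 was 0.50, Pros1 0.38, Fgb 0.33, Hc 0.33, C8b 0.32 and C9 0.28 above the group mean. F9 was 0.26, Serpinf2 0.25, C8a 0.23, Fgg 0.23, C2 0.23 and C4bp 0.21 above it. In the same liver F11 was at -0.36, Klkb1 at -0.34 and Serpind1 at -0.18. C8b thus had opposite signs in these livers, and the terminal members averaged 0.23 in wild-type APAP 12 and -0.11 in liver-null saline 4. Wild-type APAP 13, of the same group, had the opposite sign for most of these. Deviations within a group cancel out by construction, so this opposition is not independent of wild-type APAP 12. In wild-type APAP 13, Mbl1 was at -0.30 and Fgb at -0.28, and F11 at 0.29, Serpind1 at 0.24 and Klkb1 at 0.22. Other members were above the group mean in both wild-type APAP 12 and 13, such as C6 (0.18 and 0.15), Mbl2 (0.11 and 0.11) and F9 (0.26 and 0.06).

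The acute phase list, 22 tested genes such as the serum amyloid A genes that hold none of the 34 members, deviated on these 3 arrays too. Its mean was 0.76 above the group in liver-null saline 4 and 1.07 above it in wild-type APAP 12. These were the highest deviations of the 12 livers, and the lowest was -1.03 in wild-type APAP 13. The values of wild-type APAP 12 and 13 share a group mean and so are not independent. Saa1, a major acute phase protein, read 13.38 in liver-null saline 4, 13.27 in wild-type APAP 12 and 9.48 in wild-type APAP 13. Not every liver showed these signs together. In wild-type saline 9 the list stood 0.57 above its group with Klkb1 at 0.08 and F11 at 0.10. In wild-type saline 8 it stood at -0.45 with Fgb at 0.08, Fga at 0.07 and Klkb1 at 0.05. Between genotypes the list had a median log2 difference of 0.25 with 0 of 22 genes called by limma and 3 higher at an unadjusted p under 0.05. In APAP livers its median was -0.14, with 14 of 22 differences negative and 0 genes past an unadjusted p of 0.05. In saline livers the median was 0.58, with 18 of 22 positive and 7 higher at that level, and limma called 0 of 22 in either. Of all genes, 7.75% were higher at that level over both injections and 5.01% in saline livers. Without liver-null saline 4 and wild-type APAP 12 together, 4 members were called over both injections (C6, C8a, Klkb1 and Serpind1), with 225 of all genes, and 0 in saline livers, with 26 of all genes against 54.

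**Figure D4:**
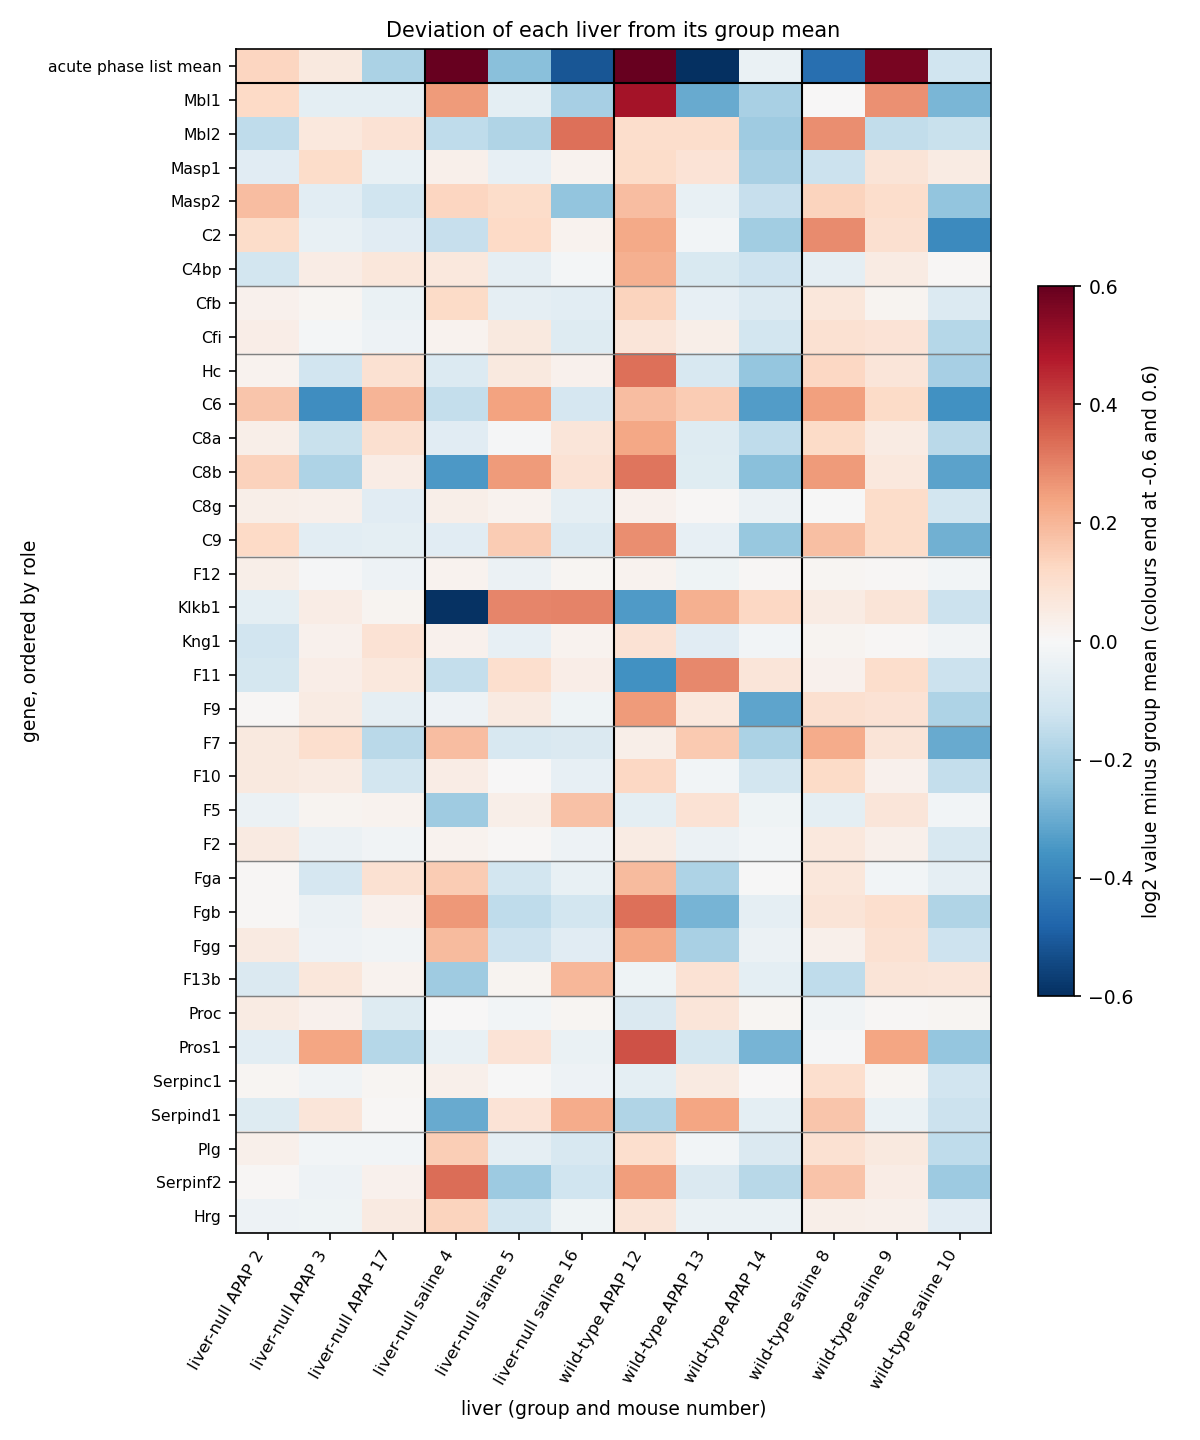
Deviation of each liver from its group mean on the log2 scale (colour, ends at -0.6 and 0.6) for the mean of the acute phase list (top row) and the 34 members ordered by role, with the 12 livers in columns by group. Fibrinogen genes share the colour of the top row in liver-null saline 4 and wild-type APAP 12, where Klkb1, F11 and Serpind1 have the opposite one.

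Of other complement genes, 18 of 30 listed were tested, and limma called 0 higher and 1 lower in liver-null livers, with a median log2 difference of -0.13. The 1 was Susd4, a complement-regulating membrane protein, at 3.64 ± 0.25 in liver-null livers, against 5.32 ± 0.38 in wild-type livers (SD, n = 6 each, log2 difference -1.68, SE 0.18, adjusted p = 0.000479). C7, the pore component between C6 and C8, had no probe set of its own and is not analysed here. Of other coagulation and fibrinolysis genes, 22 of 31 were tested, with 1 called higher and 2 lower. Among all genes, 2.18% were called lower and 4.46% in either direction. Tfpi2, a Kunitz-type protease inhibitor, was higher at 9.78 ± 0.16, against 9.23 ± 0.15 in wild-type livers (limma log2 difference 0.55, adjusted p = 0.00866). Hgfac, a factor XII-like activator of hepatocyte growth factor, was lower at 8.80 ± 0.18, against 9.25 ± 0.16 in wild-type livers (limma adjusted p = 0.0371). F3, tissue factor, was called lower at 2.30 ± 0.23, against 2.83 ± 0.23 in wild-type livers (limma adjusted p = 0.0215). Both F3 means lay below the array medians of 2.91 to 2.99. The liver-null mean also lay below the 40th percentile used as the filter, 2.42 to 2.48 over the arrays. F3 may have entered the test through its wild-type arrays, so its call does not count as a result.

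Markers of other cells and regulators were set beside the genotype result. Among all genes, 2.18% were called lower, 4.46% were called in either direction, and 53.2% of differences were negative. At an unadjusted p under 0.05 in the limma fit, 9.26% of all genes were lower. Stellate and fibroblast markers (11 of 12 tested) averaged 4.44 to 4.88 on liver-null arrays and 4.83 to 5.24 on wild-type arrays, with all 11 differences negative and Pdgfrb called lower. Kupffer and myeloid markers (14 of 16 tested) averaged 4.96 to 6.35 on liver-null arrays and 5.31 to 6.03 on wild-type arrays. Endothelial markers (12 of 12 tested) averaged 5.11 to 5.63 on liver-null arrays and 5.14 to 5.77 on wild-type arrays, with 0 called by limma in either list and 1 lower in each at an unadjusted p under 0.05. Of 8 pancreas, fat and muscle genes, 1 was tested, the elastase gene Cela1, and it was called lower, at 5.91 to 6.33 on liver-null arrays, against 7.39 to 8.41 on wild-type arrays (log2 difference -1.77, limma adjusted p = 0.000223). Of 9 platelet and erythroid markers 2 were tested, averaging 4.67 to 5.499 on liver-null arrays and 5.16 to 5.95 on wild-type arrays. Neither was called by limma, and Alas2, a heme synthesis gene of red cells, was lower at an unadjusted p under 0.05 (log2 difference -0.83, adjusted p = 0.0676). Of 6 biliary and 10 lymphocyte markers, 2 and 4 were tested, with 0 called by limma and 0 at an unadjusted p under 0.05. The biliary markers averaged 2.77 to 2.95 on liver-null arrays and 2.77 to 2.91 on wild-type arrays. The lymphocyte markers averaged 2.35 to 2.79 and 2.42 to 2.76. These levels are near or below the array medians of 2.91 to 2.99, so the lists say little about these cells. Of the hepatocyte markers, 12 of 14 differences were negative with a median of -0.05, and Asgr2 was called higher. Male-biased liver genes (10 of 16 tested) averaged 9.57 to 10.39 on liver-null arrays and 10.46 to 10.78 on wild-type arrays, and 3 were called lower, Hsd3b5, Slco1a1 and Nudt7. Among 15 liver transcription factors tested, Cebpd was called higher (log2 difference 1.43, limma adjusted p = 0.0309) and Foxa3 lower (-0.78, limma adjusted p = 0.0166), while Hnf4a differed by 0.01 and Cebpa by -0.21. The part of any of these in the lower complement and Serpind1 values was not tested.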

How the data were processed

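The authors deposited log2 values, 1 per probe set and array, from RMA (background correction, normalization and probe summary), per the submitters' processing notes. The RMA version is not given in the sources used here, nor is joint normalization of the arrays. Of 22690 probe sets, 64 are controls, and there are no detection calls or depths, so the number of arrays limits the precision. Its columns hold no samples other than the 12. Array medians were 2.91 to 2.99, pairwise correlations 0.986 to 0.998, and at most 2 probe sets were equal in a pair.

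Gene names come from the platform's annotation, which can be old: 20380 have 1 symbol, 691 several and 1555 others none listed. The Entrez identifiers of all 34 measured members matched RefSeq symbols on GRCm38.p6. The probe set of C4b is shared with C4a and was not used. The probe set with the highest mean stood for a gene, and a gene was tested where 3 or more arrays read above their own 40th percentile. No further normalization was applied.

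Group means over all 12 arrays were fitted with limma 3.58.1 in R 4.3.3 (eBayes, 8 residual and 3.43 prior degrees of freedom), with 7 two-sided comparisons and Benjamini-Hochberg adjustment over 8469 genes in each. Every adjusted p comes from this fit. The design names triplicate biological replicates. The p-values set each difference against the spread between livers within groups, pooled over the 4 groups and moderated over all genes. That spread includes any difference between the sets of arrays. The script was tested on simulated data.

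The members and lists were chosen with earlier results of these data known. Values of every array are given for called members, the 5 with the largest spread within groups, and the largest genotype and APAP difference of each role. Of other lists, up to 4 called genes per direction are named. Fibrinogen and F12 values were added after they were seen. The cut between the 2 sets of arrays was put at the largest gap in the upper quartile. Alternatives were other filters, the set of arrays as a covariate, fewer arrays, other normalization, means over probe sets, another variance model and array weights.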

Additional observations from a re-analysis of the deposited data

Results flagged for a closer look

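F12, which encodes coagulation factor XII, was picked out because its 3 APAP livers lay above the 3 saline livers in liver-null mice and below them in wild-type mice. The log2 difference between the APAP effects, liver-null minus wild-type, was 0.21 (SE 0.12, limma adjusted p = 0.999), so the difference did not pass the test. That SE is moderated over all genes, while the SD of F12 within groups was 0.03. This pattern was seen in 1 of 34 members (2.94%), against 11 of all 8469 genes (0.13%). The 1 member is F12 itself, which was picked by this pattern, so these shares are no test of the members.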

How the results depend on the processing

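No paired analysis was possible because the groups share no replicate numbers. The averaged genotype comparison called 6 members (378 of all genes), 9 with the set of arrays as a covariate (882 of all genes), and 16 with array weights, which ranged from 0.363 to 4.63 (1409 of all genes). It called 2 to 6 when 1 array was left out. C6 and C8a were called in it under all 22 alternatives run, while C8b, C9, Mbl2 and Serpind1 lost the call under some. In saline livers the count of 1 (54 of all genes) became 4 with the set of arrays as a covariate (243), 0 with only the compared arrays (19), 2 after quantile normalization (104), 4 with a variance trend and robust estimation (121), 16 with array weights (1323), and 0 without liver-null saline 4 and wild-type APAP 12 together (26), an alternative chosen after seeing the data. With 1 array left out it was 0 to 2 (10 to 92). In APAP livers the count of 0 (65 of all genes) became 2 with the set of arrays as a covariate (185), 2 with a variance trend and robust estimation (98) and 3 with array weights (210), and stayed at 0 with 1 array left out (21 to 60). The 4 comparisons of APAP called 0 members under every alternative run. Of the single-gene values, 5289 kept their side of the threshold, 47 became stronger, 36 weaker and 0 reversed among called ones. The 5289 include values whose sign changed while the gene was called in neither fit. An example is C4bp in saline livers, at 0.01 in the main fit and from -0.05 to 0.10 under the alternatives. The cause of these changes was not tested. Signal near background limits dim genes such as F3 and Susd4, whose differences may be understated. The arrays measure RNA, not plasma protein or activity.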
